A study of Mus musculus with 310 samples.

Results

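The genes described here encode the enzymes that use glutathione and thioredoxin to detoxify reactive compounds and peroxides. All symbols of the count table that begin with Gst and a lower-case letter, with Gpx or Prdx and a digit, or with Txn were taken, leaving out symbols that hold -ps. These are 46 of the 14068 genes in the table: 19 glutathione transferases and relatives (Gst), 5 glutathione peroxidases (Gpx), 6 peroxiredoxins (Prdx) and 16 genes of the thioredoxin group (Txn). The rule used the names alone and no measured value.

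Glutathione is a small thiol that cells keep at high concentration. Glutathione transferases couple it to electrophiles, and glutathione peroxidases spend it to reduce peroxides. Peroxiredoxins also reduce peroxides, and most of them are recharged by thioredoxin, a small protein with a reactive pair of cysteines, which thioredoxin reductases recharge in turn with NADPH. In skin, a tissue open to ultraviolet light and chemicals, many of these genes are known targets of the stress-responsive factor Nrf2, encoded by Nfe2l2. The name decides membership, so the set also holds proteins with a thioredoxin-like fold and other roles, such as Txnl4a, a component of the splicing machinery, and Txnip, an inhibitor of thioredoxin that also restrains glucose uptake.

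The cells came from female mice, per the study's methods, of mixed CBA and C57BL/6 background that carry Lrig1-EGFP-ires-CreERT2 and the Rosa26-fl/STOP/fl-tdTomato reporter. All groups shared these alleles and 1 topical dose of hydroxytamoxifen on tail skin, which turns on tdTomato in cells that express Lrig1, a marker of stem cells of the upper hair follicle, and in their progeny. Tomato-positive epidermal cells were sorted into wells and sequenced by full-length RNA-seq (modified Smart-seq2), and the 310 profiles, called cells here, fall into group 38w (145 cells, replicates RepI and RepL) and group 38wUW (165 cells, replicates RepM and RepN), both labelled 38 weeks. The series compares repaired skin with age control skin, but the labels do not spell out UW, so each difference is given as 38w against 38wUW and no wound history is assigned.

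The names of 15 profiles end in a suffix that the labels do not explain. Of the 13 with IDTILL, all on C114, 11 share a well name with another profile; the correlation of log expression within such pairs had a median of 0.63, against 0.62 for pairs from different wells. The other 2 profiles, on C119 and C129, end in MBULK and may hold more than 1 cell. All 15 were kept; without them no gene was called either, and the members' median log2 fold change was 0.82 in place of 0.84.

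RepI was spread over plates C114 and C118, RepL was plate C119, RepM plate C128 and RepN plate C129. Nothing in the labels says that the replicates are separate animals, so p-values measure only the spread between these 4 samples. The 310 cells hold 11711 to 721564 reads each, and the replicates sum to 5472070 to 12946742 reads. There are no molecular identifiers, so reads of 1 cell are not independent molecules. Every cell has reads of the general keratinocyte markers, and the summed immune markers stay between 1.31 and 2.93 reads per 1000000 reads of the sample (CPM). The summed fibroblast markers had 62.7 and 21.3 CPM in RepI and RepL and 14.7 and 7.26 in RepM and RepN, mostly from Dcn (61.7 CPM in RepI, reads in 22 cells), while Col1a1 was at 0 in RepI. The melanocyte markers summed to 7.11 to 15.1 CPM, with reads in 33.2% of cells. The part of these other cell types in the members' levels was not tested. Pecam1, listed as an endothelial marker, has reads in all 310 cells while Kdr has 8 reads in all. Plate C114 stands apart: the median cell there has 31.6% of its reads on ribosomal protein genes, against 3.6% to 6.76% on the other plates. Mitochondrial genes take 2.77% there, against 33.8% on C118 and 9.69% to 18.3% on C119, C128 and C129. Group results that rest on C114 are therefore given with and without it. C114 holds 53 of the 70 cells of RepI, so without it RepI rests on the 17 cells of C118. That plate has the highest mitochondrial share, so values without C114 are not free of plate differences.

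Some members can share reads. Gstp1 (chr19:4035407-4037985, minus strand, GRCm38) and Gstp2 (chr19:4040285-4046023, minus strand) lie side by side, both encode Pi-class transferases, and their coding sequences of 630 bases differ at 12 positions (98.1% identity). The start of both coding sequences is shown because a read must cover a capital letter to tell the genes apart; capitals mark the 6 differing bases in this stretch of 90, and the sequences are from GENCODE vM21.
Gstp1: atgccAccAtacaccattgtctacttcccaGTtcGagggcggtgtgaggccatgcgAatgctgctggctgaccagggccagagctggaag
Gstp2: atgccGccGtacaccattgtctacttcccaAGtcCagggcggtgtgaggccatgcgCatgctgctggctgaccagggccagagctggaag
Of all windows of 75 bases, the read length, 57.7% of Gstp1's and 68.2% of Gstp2's also occur in another gene's transcripts. The share is 86.3% for Gsta1 and 46.9% for Gsta2, which match each other and Gm10639, 55.3% for Gpx4, which matches Gpx4-ps2, and 28.2% for Prdx5, which matches transcripts of Trmt112. The assignment of reads among these genes is therefore uncertain, and 30 of the 46 members have a share below 5%.

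The promoters of several members hold a match to TGACNNNGC, the core of the antioxidant response element that Nrf2 is known to bind. Promoters of 300 bases (250 before to 50 after the start, RefSeq, GRCm38.p6) were found for 41 members, and both strands were searched. The match was present in 7 of the members' 57 promoters (12.3%) and in 12.4% of all 32851 promoters, so the 2 shares were close. Matches in 3 of the 25 members described one by one below are shown, with the matching bases in capitals, written on the strand that holds the match.
Prdx1 (chr4:116685458-116685482, minus strand): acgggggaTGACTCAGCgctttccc
Txnrd1 (chr10:82859106-82859130, minus strand): tgtcagaaTGACAAAGCaaaaatcc
Gstm5 (chr3:107895804-107895828, plus strand): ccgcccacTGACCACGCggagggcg
A match of these letters is a description of the window and shows no binding.

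The members took 0.675% and 0.28% of the reads of RepI and RepL, and 0.326% and 0.389% of the reads of RepM and RepN. Within RepI the share was 0.72% on C114 and 0.466% on C118, and the lowest cell of all had 0.0342% and the highest 1.32%. Few genes carried the set: over the 4 replicates Txn1 made up 20.9% of the members' summed CPM, the leading 2 members 38.7% and the leading 4 members 50.9%. Per kilobase of transcript, the scale on which genes can be compared, the mean level was highest for Txn1 at 831 CPM per kb, then Prdx1 at 323, Txndc17 at 256, Gsto1 at 221, Gstm5 at 220 and Gpx1 at 121. The lowest was Gstt2, at 0.339 CPM per kb. The means of Gstm5 and Gpx1 rest largely on RepI. Gstm5 had 547 CPM there and 27.4 to 142 in the other replicates, and Gpx1 had 412 and 15.7 to 51.4.

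The glutathione transferases took 0.162% of the reads of RepI, 0.0347% of RepL, 0.046% of RepM and 0.043% of RepN. The high value came from C114, with 0.186%, while C118 had 0.0498%. The glutathione peroxidases gave 0.0749%, 0.015%, 0.0308% and 0.0178% in the same order, again with C114 at 0.0878% and C118 at 0.0153%. Peroxiredoxins gave 0.226%, 0.0706%, 0.0852% and 0.133%. The thioredoxin group was the most even, with 0.212%, 0.16%, 0.164% and 0.195%, and there C118 (0.269%) was above C114 (0.2%). In all 4 families the ranges of the 38w and 38wUW replicates overlapped, with RepL the lowest replicate in each.

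**Figure D1:**
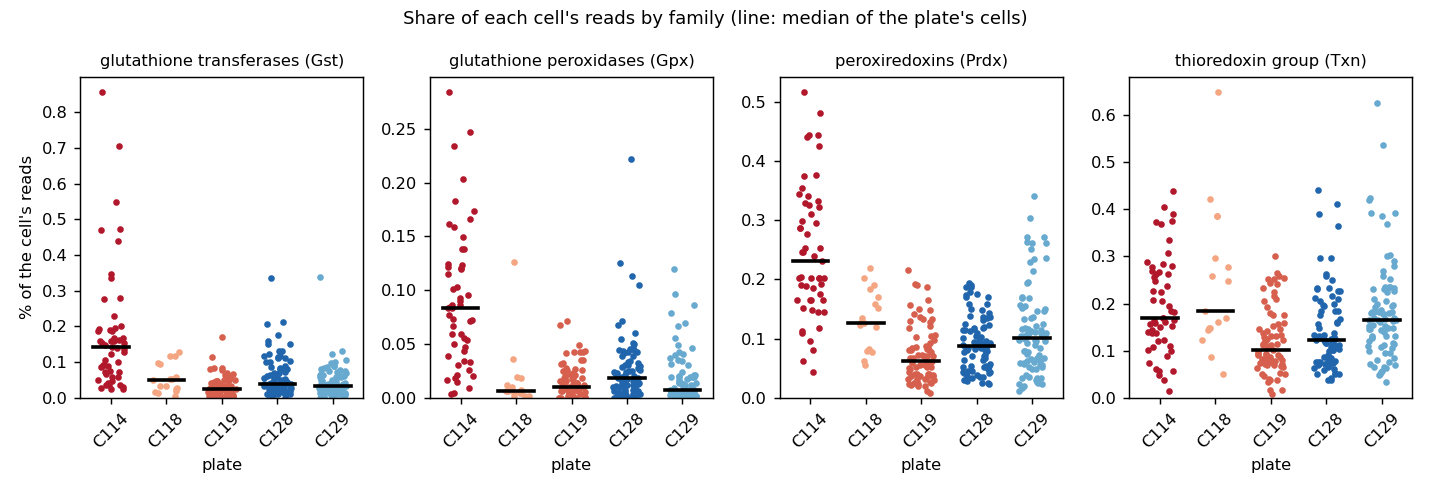
Percent of each cell's reads taken by the glutathione transferases, glutathione peroxidases, peroxiredoxins and the thioredoxin group (y axis of each panel), by plate (x axis), with 1 point per cell and a line at the median of the plate's cells. The median C114 cell had 0.142% on transferases and 0.0833% on peroxidases, against at most 0.0494% and 0.0185% on the other plates, while the thioredoxin medians lay between 0.101% and 0.185%.

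Counts summed per replicate were compared with edgeR's quasi-likelihood test over all 11760 genes that passed the filter on low counts, of which 42 are members (Gpx7, Gstm6, Gstm7 and Gstt2 did not pass). At an adjusted p under 0.05 no member and no gene was called (0% of all genes). Unadjusted edgeR p-values under 0.05 were found for 949 genes, among them 4 members higher in 38w (Gsta2, Gpx1, Gstp1 and Gstp2; background 4.29% of all genes) and 1 lower (Txnrd1; background 3.78%). DESeq2, at its adjusted p, called 83 genes (0.706%), among them the single member Gsta2. The median log2 fold change of the 42 members was 0.84, against 0.12 over all genes. Without C114 the median of the 39 members then tested was 0.11, against 0.03 over all genes, and without RepI it was -0.37 against -0.15, so the direction of the members' median depended on RepI. Both 38w replicates were above both 38wUW replicates for 7 of the 42 members (background 12.6% of genes) and below them for 6 (background 26.2%).

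The number of calls changed when either 38w replicate was left out. Without RepL, which leaves RepI as the lone 38w sample and assumes that it varies like the other group, edgeR called 1215 of 12932 genes and 13 of 46 members. All 13 were higher in 38w, where the background for that direction is 6.35% of all genes. They were Gstp1, Gstp2, Gstm2, Gstm5, Gstm7, Gstk1, Gsta2, Gpx1, Gpx4, Gpx7, Prdx2, Prdx5 and Txn2. With RepI further reduced to C118, an alternative chosen after those calls were seen, 428 genes (3.55%) and 1 member were called, and that member, Gpx2, was lower in 38w by a log2 fold change of -6.02 (adjusted p = 0.00632), a fitted value that rests on 1 read on C118 and depends on the prior count. Without RepI, 169 genes and no member were called.

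**Figure D2:**
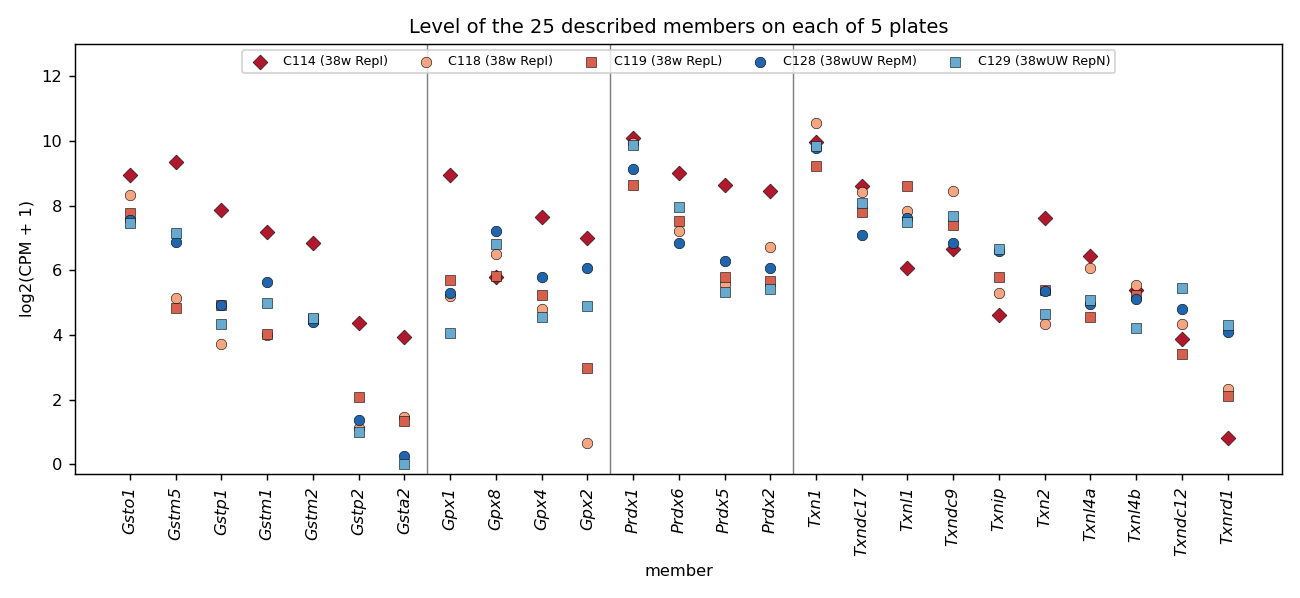
Level of the 25 members described one by one, as log2(CPM + 1), on each of the 5 plates (1 point per plate, red shades for 38w and blue for 38wUW), ordered by family along the x axis. The C114 point stands above the other 4 plates for Gstm5, Gstp1, Gstm1, Gstm2, Gpx1, Gpx4, Prdx5, Prdx2 and Txn2, and below them for Txnl1, Txnip and Txnrd1.

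Among the transferases, Gsto1, an omega-class enzyme with thioltransferase activity, had 465 and 217 CPM in the 38w replicates RepI and RepL, against 188 and 174 CPM in the 38wUW replicates RepM and RepN. The groups did not overlap, and C118 alone gave 322. It gave a log2 fold change of 1.17 (SE 0.89, adjusted p = 0.729 by edgeR) and 0.84 without C114. Gsto1 was the member of the transferases seen in the most cells, with reads in 242 of 310.

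Gstm5, a mu-class transferase, had 547, 27.4, 117 and 142 CPM in RepI, RepL, RepM and RepN. The value of RepI was that of C114 (658 CPM), while C118 had 34.3, close to RepL. Its log2 fold change was 1.42 (SE 1.10) and turned to -1.81 without C114. A single C114 cell held 24.8% of all Gstm5 reads. Counted as cells, after each was thinned to 20000 reads, Gstm5 was seen in 39.7% and 25.7% of the cells of RepI and RepL and in 60.9% and 62.7% of RepM and RepN. Infundibular and duct cells, the marker class in which Gstm5 was read in 91.4% of cells, made up 17.1% and 10.7% of RepI and RepL and 34.1% and 26.5% of RepM and RepN, and their part in this difference was not tested.

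Gstp1, the abundant Pi-class enzyme, had 191, 29.3, 29.3 and 19.3 CPM, and its neighbour Gstp2 had 16.3, 3.23, 1.61 and 0.983. Both were highest on C114, at 230 CPM for Gstp1 and 19.6 for Gstp2, whereas C118 gave 12.2 and 1.16. Fitted log2 fold changes were 2.45 (SE 1.01, unadjusted p = 0.0276) for Gstp1 and 3.16 (SE 1.31, unadjusted p = 0.0287) for Gstp2, each with an adjusted p of 0.617. Without C114 it was 0.03 for Gstp1, and Gstp2 no longer passed the filter.

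The mu-class genes Gstm1 and Gstm2 followed the same plate. Gstm1 had 122, 15.3, 48.5 and 30.8 CPM, and its log2 fold change of 1.05 turned to -1.13 without C114. Gstm2 had 98.4, 21.7, 20.3 and 22.2 CPM, and its log2 fold change of 1.76 dropped to 0.26.

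Gsta2, an alpha-class transferase, had the largest fitted difference of the members, from few reads. Its levels were 12 and 1.51 CPM in the 38w replicates and 0.183 and 0 in the 38wUW replicates, or 126 reads against 1. The ratio of the read shares was 149, with a 95% interval of 26.3 to 5950 (exact binomial) that treats each read as an independent draw. Reads of 1 cell are not independent, so this interval understates the error. The log2 fold change was 6.66 (SE 1.90, unadjusted p = 0.00311, adjusted p = 0.611) and depends on the prior count. Reads were found in 14 cells, of which 1 held 24.5% of them, and C114 held 89.9%. C118 gave 1.74 CPM and RepL 1.51, both above the 38wUW replicates. Of the 14 cells with a read, 12 were interfollicular differentiated cells by marker class. That class made up 27.1% and 20% of RepI and RepL and 12.2% and 9.64% of RepM and RepN. Its part in the Gsta2 difference was not tested.

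Of the remaining transferases, Gstt3 and Gstk1 had up to 47 and 56.7 CPM in RepI and less than 20 elsewhere, while Gsta1, Gsta3, Gsta4, Gstcd, Gstm4, Gstm6, Gstm7, Gstp3, Gstt2 and Gstz1 reached at most 22.6 CPM in any replicate. Of Gstm7's 164 reads, 75% lay in 1 C114 cell. Of the 16 transferases tested, 14 had a log2 fold change above 0 with all plates, against 6276 of 11760 over all genes. Without C114 it was above 0 for 8 of 13 transferases, against 5675 of 11075 over all genes.

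The glutathione peroxidases differed from each other. Gpx1, the common cytosolic peroxidase, had 412 and 51.4 CPM in the 38w replicates and 38.2 and 15.7 CPM in the 38wUW replicates, and C114 (492 CPM) was 13.7 times C118 (36.1 CPM). The groups did not overlap, though C118 alone lay below RepM. The log2 fold change was 3.36 (SE 1.08, unadjusted p = 0.00713, adjusted p = 0.617), and 0.95 without C114. In thinned cells Gpx1 was seen in 77.9% and 52.9% of RepI and RepL and in 42.2% and 17.3% of RepM and RepN, with 58.8% on C118. C114 held 83.6% of its reads.

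Gpx4, the peroxidase that reduces lipid hydroperoxides in membranes, had 167, 36.4, 54.5 and 22.6 CPM, with 198 on C114 and 26.7 on C118. Its log2 fold change was 1.66 (SE 0.96), and -0.04 without C114. Gpx2, known from epithelia such as the gut, had 104, 6.9, 66.3 and 28.6 CPM. On C118 it had 0.581 CPM, which is 1 read, against 126 on C114, so the plates of RepI bracket all others, and the log2 fold change went from 0.48 to -3.33 without C114.

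Gpx8, a peroxidase of the endoplasmic reticulum, went the other way. It had 61.1 and 55.5 CPM in the 38w replicates and 149 and 111 in the 38wUW replicates, and both plates of RepI (55 and 89.5 CPM) lay below 38wUW. The groups did not overlap, but the log2 fold change of -0.91 (SE 0.83, adjusted p = 0.779; -0.59 without C114) did not pass the test. It was -0.16 with equal weight per cell and -0.34 in thinned cells. Gpx7, also of the endoplasmic reticulum, had 56 reads in 4 cells, 46 of them in 1 C114 cell, and 0 of 18418812 reads in 38wUW.

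Of the peroxiredoxins, Prdx1, a cytosolic enzyme, was the most abundant, with 1080, 398, 563 and 929 CPM and reads in 304 of 310 cells. Its groups overlapped widely, C114 and C118 were alike (1100 and 973 CPM), and the log2 fold change was 0.24 (SE 0.99). Prdx6, which also acts on phospholipid peroxides, had 448 and 183 CPM in 38w and a mean of 182 CPM (SD 96.5, n = 2) in 38wUW, where RepN had 250, with 513 on C114 and 147 on C118, and its log2 fold change of 1.05 dropped to 0.11 without C114. Prdx5 and Prdx2 had 338 and 306 CPM in RepI and 39 to 76.7 CPM in the other replicates. On C118 Prdx5 had 47.1 CPM, within the range of the other replicates, whereas Prdx2 had 105 and stayed above them. Their log2 fold changes were 2.02 (SE 0.99) and 1.97 (SE 0.97), both with an adjusted p of 0.631, and 0.06 and 0.77 without C114. The mitochondrial Prdx3 and the endoplasmic reticulum enzyme Prdx4 reached at most 26.6 and 61.1 CPM, and both had overlapping groups.

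In the thioredoxin group, Txn1, the cytosolic thioredoxin, was at 1090, 592, 887 and 923 CPM and was detected in 299 of 310 cells. The groups overlapped, C118 gave 1500 CPM and C114 1000 CPM, and the log2 fold change was 0.15 (SE 0.98). Txn2, the mitochondrial thioredoxin, had 164, 40.8, 40.2 and 23.9 CPM, with 195 on C114 and 19.2 on C118, and its log2 fold change of 1.93 (SE 0.94, adjusted p = 0.629) was 0.15 without C114.

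Txnrd1, the cytosolic thioredoxin reductase, had 1.34 and 3.28 CPM in RepI and RepL and 16.1 and 18.9 in RepM and RepN, and each 38w plate (0.75 on C114, 4.07 on C118, 3.28 on C119) was below both 38wUW plates. The log2 fold change was -2.69 (SE 1.15, unadjusted p = 0.0325, adjusted p = 0.617 by edgeR), and -2.01 without C114. In thinned cells it was seen in 1.47% and 4.29% of the 38w cells and 17.2% and 16% of the 38wUW cells. Its 365 reads came from 51 cells, and 1 C129 cell held 28.2% of them. The other reductases, Txnrd2 and Txnrd3, had at most 4.97 and 28 CPM and overlapping groups.

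Txnip, the thioredoxin inhibitor, had 26.3 and 54.3 CPM in 38w and 95.4 and 100 in 38wUW. All 3 plates of 38w were below both plates of 38wUW, with C118 at 38.4 CPM. The log2 fold change was -1.04 (SE 0.86, adjusted p = 0.754), and -0.83 without C114, and neither passed the test. With equal weight per cell it was -0.27, and in thinned cells -0.20.

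The other members of the group are thioredoxin-fold proteins. Txndc17, which also reduces cystine, had 378, 220, 134 and 271 CPM, and Txndc9, which binds a cytosolic chaperonin, had 144, 167, 115 and 204, with overlapping groups for both. Txnl1, which associates with the proteasome, had 95.3, 393, 194 and 181 CPM, with 66.6 on C114 and 229 on C118, and 1 C119 cell held 16.6% of its reads. Txndc12, of the endoplasmic reticulum, had 14.6 and 9.65 CPM in 38w and 26.9 and 42.8 in 38wUW, without overlap, and its log2 fold change was -1.27 (SE 0.92, adjusted p = 0.722) and -1.02 without C114. The splicing-related Txnl4a and Txnl4b had 82.7, 22.5, 30.1 and 33 CPM and 41.6, 37, 33.5 and 17.7 CPM. Txndc5, Txndc11, Txndc15 and Txndc16 reached at most 39.7 CPM in any replicate, and of these Txndc11 and Txndc15 had both 38w replicates below both 38wUW replicates. For Txndc11 this rested on C114: C118 had 21.5 CPM, above both 38wUW plates, and the log2 fold change went from -0.41 to 0.45 without C114.

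**Figure D3:**
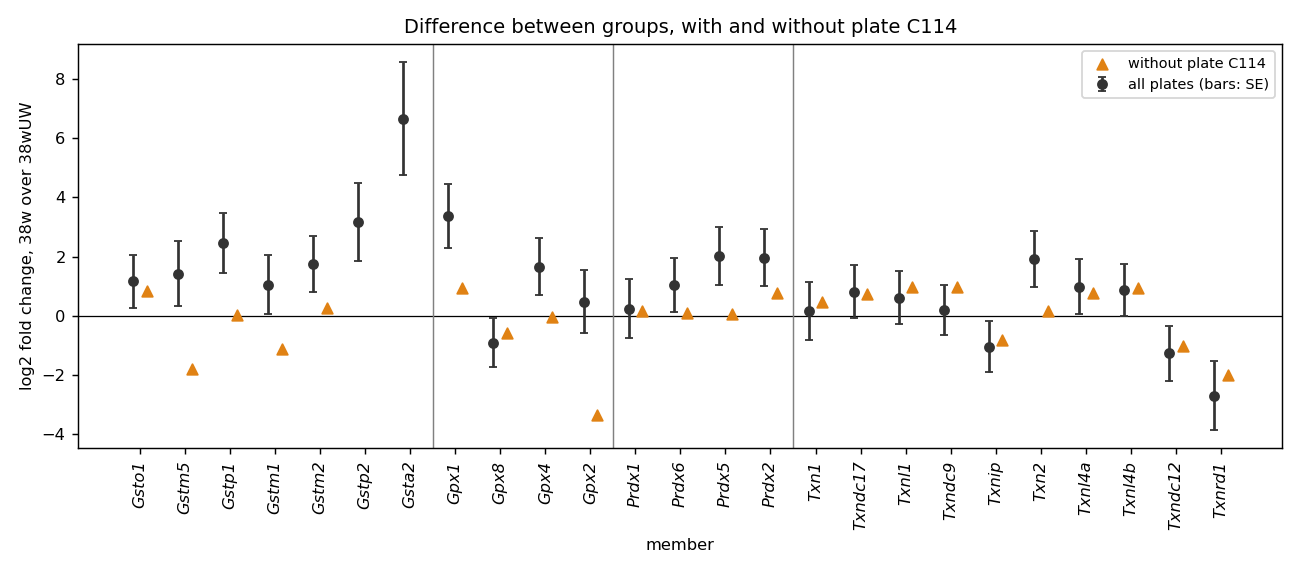
Log2 fold change of 38w over 38wUW (y axis) for the 25 members, from all plates (black points, bars for the SE of the fit) and without plate C114 (orange triangles; Gstp2 and Gsta2 did not pass the filter then). For Gstm5, Gstm1, Gpx4 and Gpx2 the value moved below 0 without C114, while Txnrd1, Txnip, Txndc12 and Gpx8 stayed below 0 and Gsto1 above it in both.

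The plates of RepI carry the same replicate label, so the contrast between them holds no difference of group. C114 was at or above 2 times C118 for 21 of the 42 members (background 40.7%) and at or below 0.5 times for 7 (background 35%). C114 was the highest of the 5 plates for 23 of 42 (background 29.5%), and by family for 11 of 16 transferases, 3 of 4 peroxidases, 5 of 6 peroxiredoxins and 4 of 16 of the thioredoxin group. Transcript length moved with this contrast. Over the 42 members Spearman's rho between the log2 ratio of C114 to C118 and the length of the longest coding transcript was -0.52, and over 11532 genes it was -0.34; these are correlations across genes that share both plates and are given as descriptions. The 22 members under 1500 bases had a median log2 ratio of 1.91, and the 20 longer ones 0.27, against 1.79 and -0.11 over all genes. The part of length, of the ribosomal protein share and of the plate in the members' levels was not tested.

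**Figure D4:**
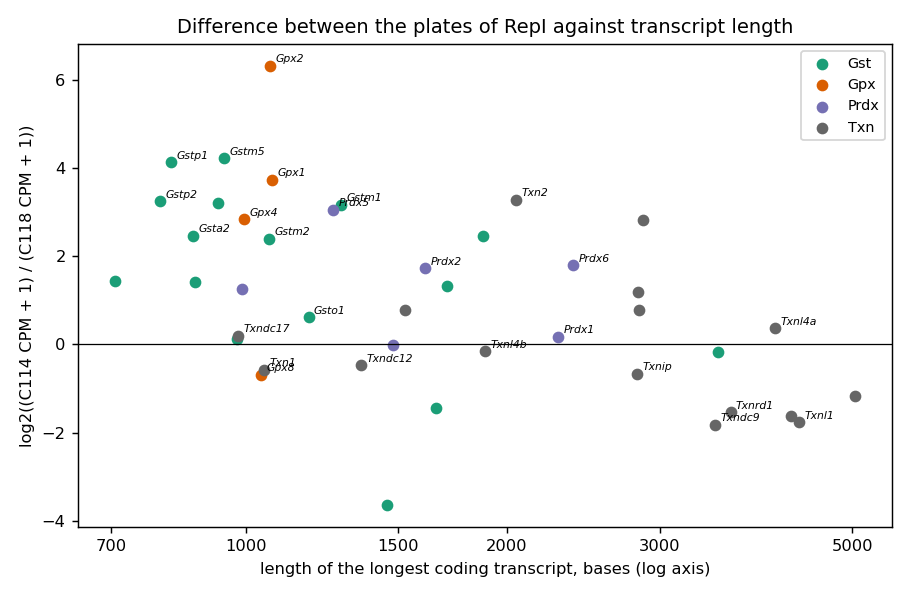
Log2 ratio of the level on C114 to that on C118, each as CPM + 1 (y axis), against the length of the longest coding transcript (x axis, log scale), 1 point for each of the 42 members tested, coloured by family. Short members such as Gstp1, Gstm5 and Gpx1 lie at the top, and long members such as Txnrd1, Txndc9 and Txnl1 lie below 0. There are exceptions: the short Gsta3 is the lowest point (-3.64), and the long Txn2 (3.28) and Prdx6 (1.80) lie high. Of the 20 members of 1500 bases or more, 11 lie above 0.

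The batch tags of the labels put C114 with C128 in 1 batch and C118, C119 and C129 in the other, and a second tag swaps C128 and C129. In the batch of C114 and C128, the members took 0.72% of the reads in 38w and 0.326% in 38wUW, and in the other batch 0.466% and 0.28% on the 38w plates against 0.389% on C129. The sign of the difference was thus not the same throughout: C119 was below and C118 above the 38wUW plate. With plates as units and the batch as a block, the members' median log2 fold change was 0.52 with either tag, against -0.06 and -0.09 over all genes, and no member was called.

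Expression was also set against the cells' markers. Each cell was given the class whose marker genes scored highest, which gave 92 basal, 52 interfollicular differentiated, 70 infundibular and duct differentiated, 62 bulge and 34 sebaceous cells. A class is a range of scores, and 53 cells lay within 0.2 of another class, so values are given without a test. C114 contributed 25 basal but 1 sebaceous and 3 bulge cells.

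The groups differed in their class make-up. Group 38w held 59 basal, 34 interfollicular, 20 infundibular and duct, 17 bulge and 15 sebaceous cells, and group 38wUW held 33, 18, 50, 45 and 19. Bulge cells made up 8.57% and 14.7% of RepI and RepL and 22% and 32.5% of RepM and RepN. The 6 members that were lower in both 38w replicates were therefore also read within the bulge class. Of these, Txndc12 overlapped there, with 42.4 and 12.4 CPM in RepI and RepL against 20.1 and 42.4 in RepM and RepN. Txndc11 (22.4 and 10.2 against 14.9 and 16.2) and Txndc15 (68.6 and 2.66 against 9.78 and 23.9) overlapped there too. There Txnrd1 had 3.74 and 7.1 CPM in RepI and RepL and 22.7 and 41.1 in RepM and RepN, from 1, 1, 2 and 11 cells with a read. In basal cells it had 0.716 and 2.64 against 6.21 and 6.8 CPM, from 3, 2, 4 and 2 cells. Infundibular and duct cells gave 0 and 0 against 10.3 and 1.82 CPM, and interfollicular cells had reads in RepM alone. In sebaceous cells, where 38.2% had a read, the Txnrd1 groups overlapped, with 17.5 and 6.65 against 32.3 and 13.3 CPM. Txnip had 44.9 and 63 CPM against 134 and 172 in bulge cells, and 32.7 and 47.5 against 51.2 and 51.8 in basal cells. Infundibular and duct cells gave 8.46 and 43 against 108 and 56.6 CPM. The Txnip groups overlapped in interfollicular cells (18.6 and 17.6 against 22.6 and 2.05) and in sebaceous cells (44.9 and 133 against 32.3 and 108). Gpx8 overlapped in bulge and basal cells. In bulge cells RepI (161 CPM) lay between RepN and RepM (348 CPM), with RepL at 97.7. In basal cells Gpx8 had 69.7 and 54.3 against 34.1 and 86.3 CPM. RepI holds 6 bulge cells. The part of the class make-up in the differences between groups was not tested.

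Gstm5, Gpx2, Gsta3, Gpx8, Gpx4 and Txn2 are given as examples of class patterns. Gstm5 was highest in the infundibular and duct cells in each of the 4 replicates, with 2170, 106, 218 and 312 CPM in RepI, RepL, RepM and RepN. It was read in 91.4% of those cells, 64.7% of sebaceous, 64.5% of bulge, 35.9% of basal and 34.6% of interfollicular cells. Gpx2 had 490, 13.7, 167 and 70.8 CPM there, which was the highest class in 3 replicates; in RepL the bulge cells were higher, at 28.4. Gpx2 was read in 70% of infundibular and duct cells, 33.9% of bulge cells and 5.88% of sebaceous cells. Gsta3, another alpha-class transferase, had 62.4, 8.32, 21.5 and 14.1 CPM in sebaceous cells and at most 2.92 in any other class of any replicate. It rests on 79 reads, with 11 of 34 sebaceous cells holding any, and 1 C118 cell held 31.6% of them. Gpx8 was highest in bulge cells in 3 replicates, with a mean of 181 CPM over the 4 replicates against 61.1 in basal cells, the next class by mean, and above the basal cells in all 4.

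Gpx4 and Txn2 were also highest in the sebaceous cells of every replicate, Gpx4 with 272, 105, 123 and 51.3 CPM and Txn2 with 574, 106, 116 and 34.5. The RepI values rest on 3 sebaceous cells, of which 2 had a Gpx4 read and 1 a Txn2 read. The class means of Prdx1 over the replicates were nearly level, at 672 to 840 CPM (SD 274 to 428, n = 4). Within RepL, Prdx1 ran from 265 CPM in interfollicular cells to 755 in infundibular and duct cells. Txn1 ran from 385 ± 165 CPM (SD, n = 4) in sebaceous cells to 1200 ± 581 in basal cells. Basal cells were the highest class for Txn1 in 3 of 4 replicates. Within classes, C114 was the highest plate for 17 of the 25 members in basal cells (background 27.3% of all genes). The count was 14 in interfollicular cells (24.8%) and 12 in infundibular and duct cells (23%), where C118 has 1 cell. Gsta2 is among the 17 with 0.539 CPM on C114, from 1 cell. The 25 members were picked by mean level and fold change, which include C114, so these counts cannot be weighed against the backgrounds. Gpx1 in basal cells had 623 CPM on C114 and 25.6 to 127 on the other plates.

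**Figure D5:**
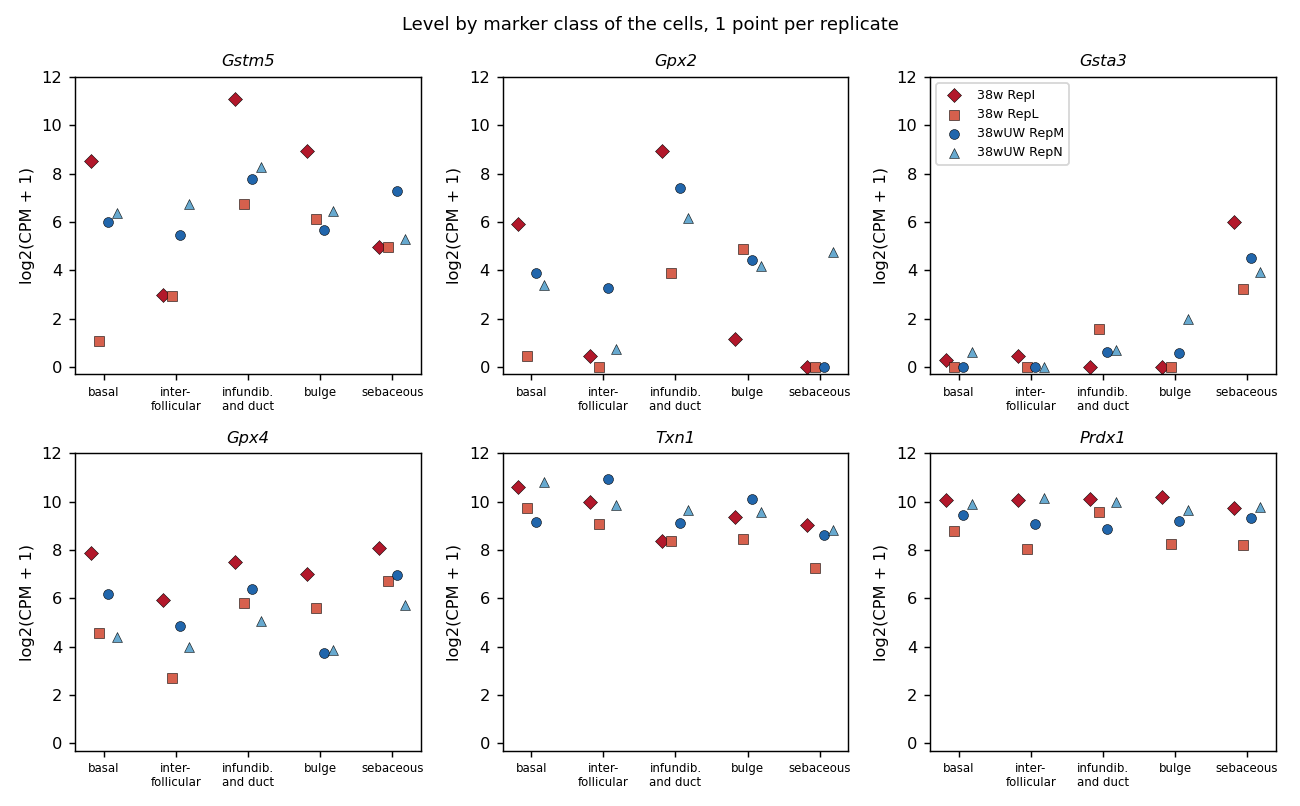
Level of Gstm5, Gpx2, Gsta3, Gpx4, Txn1 and Prdx1 as log2(CPM + 1) (y axis) in cells of each marker class (x axis), 1 point per replicate. Gsta3 is high in the sebaceous class in all 4 replicates, and Gstm5 peaks in the infundibular and duct class. Prdx1 is nearly level across classes in its means over the replicates, but less so within single replicates.

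The share of cells with a read was compared after thinning, over the 277 cells that hold 20000 reads. Of the 42 members, 4 had both 38w replicates above both 38wUW replicates (Gpx1, Prdx6, Gstp2 and Gsta2; background 9.84%), and 11 had them below (background 33.2%), among them Txnrd1, Txnip, Gstm5, Gpx2, Txnl1 and Prdx1. These lists changed with the thinning. At 10000 reads per cell Gpx1 overlapped (68.6% and 26.7% in 38w against 34.1% and 14.5% in 38wUW), as did Txnip and Prdx1. Without thinning, Prdx6, Txnl1 and Prdx1 overlapped. Gstp2, Gsta2, Txnrd1, Gstm5 and Gpx2 did not overlap in either setting. The exact two-sided permutation test over 4 replicates has 6 arrangements and cannot go below p = 0.333, the value that 10 of the 25 members reached.

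The wider pathway was read from 39 genes that are no members: glutathione synthesis, glutaredoxins, superoxide dismutases, NADPH supply, microsomal transferases and the Nrf2 axis. Of these, 37 were in the table and 34 were tested, and edgeR called none. At an unadjusted p under 0.05, 3 were higher in 38w (Tkt, Mgst3 and Msra; background 4.29% of all genes) and 1 lower (Me1; background 3.78%). Without C114 the log2 fold change went from 1.97 to 0.39 for Tkt, from 2.44 to -0.44 for Mgst3 and from 3.14 to 0.98 for Msra. The median log2 fold change of the 34 was 0.33, against 0.12 over all genes. It was above 0 for 20 and below 0 for 14, and over all genes above 0 for 6276 of 11760. Me1, which makes NADPH, had 6.99 and 12.1 CPM in 38w and 85.7 and 35.2 in 38wUW, and its log2 fold change of -2.43 (SE 0.94, adjusted p = 0.617) was -2.25 without C114. The most abundant of the list were Glrx3 (mean 279 CPM), Mgst1 (271), Sod2 (116), Slc3a2 and Cat (98.8). Cat, the peroxide-degrading catalase, had 16.6 CPM on C114 and 256 on C118, so its plates of RepI differed in the opposite direction to Gpx1. Nfe2l2 itself had 68.2, 103, 68.9 and 66.7 CPM, with overlapping groups.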

How the data were processed

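The deposited values were estimated counts (expected counts) per gene and cell, which the authors made with Salmon 0.13.1 from single-end 75-base reads against the mouse transcriptome; 3.6% of values were not whole. The table held 0 cells with fewer than 1000 genes or above 50% mitochondrial reads, and 112 genes with reads in fewer than 5 cells. Counts were summed per replicate, rounded, filtered (filterByExpr), scaled by TMM and tested with edgeR 4.0.16 (R 4.3.3), with Benjamini-Hochberg adjustment over all genes and a threshold of 0.05; DESeq2 1.42.0 was an alternative. CPM are counts of a gene per 1000000 counts of the sample. Depth was 11711 to 721564 reads per cell. The rule for single description took the 20 members with the highest mean CPM and 5 further non-overlapping members with the largest fold change. Values of Gsta3, Gstm7 and Gpx7 and the class examples were chosen after their values were seen. The members and lists were chosen with earlier results of these data known. Scripts were tested on simulated data. Lengths and positions came from GENCODE vM21 (GRCm38), promoters from RefSeq. The counting interval treats reads as independent draws and so understates the error. The study's fits of single cells were not repeated, since cells are not replicates.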

Additional observations from a re-analysis of the deposited data

How the results depend on the processing

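Of 418 values of the 25 members under 17 alternatives, 30 reversed, 11 kept their direction and newly passed the threshold, and 377 did neither. With every cell and plate, 0 members and 0 genes were called. DESeq2 called 1 member and 83 genes. Genes called numbered 1 without the low-count filter, 1 with the batch tag as a block and 4 with the alternative tag. The fits with a block take plates as units, so they count RepI 2 times. Leaving out 1 replicate gave 0 to 13 members called, 0 to 1215 genes called, a median log2 fold change of the members from -0.37 to 1.56, and 12 to 22 of the 25 members whose shares of cells did not overlap, against 10. With 1 replicate against 2 such non-overlap is more common by construction, and over all genes it went from 43% to between 65.3% and 78.2%. With RepI from C118 only and RepL left out, an alternative chosen after seeing the data, 1 member and 428 genes were called. The replicate names (RepI, RepL, RepM and RepN) pair no samples across groups, so the only blocks fitted were the batch tags.

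Reversed log2 fold changes were: equal weight per cell, Txnl1 -0.10 and Txndc9 -0.05. Cells thinned to 20000 reads gave Txnl1 -0.25 and Txndc9 -0.10. Without C114 the values were Gstm5 -1.81, Gpx4 -0.04, Gstm1 -1.13 and Gpx2 -3.33. The batch block gave Gstm5 -0.32 and Gpx2 -1.14, and the alternative block Gstm5 -0.17 and Gpx2 -1.94. Leaving out each replicate in turn gave Txn1 -0.38 to 0.61, Prdx1 -0.67 to 0.87, Txnl1 -0.64 to 1.30, Gstm5 -2.01 to 2.42, Txndc9 -0.12 to 0.67, Gstm1 -1.14 to 1.96, Gpx2 -2.55 to 1.46 and Txnl4a -0.26 to 1.73. C118 only, without RepL, gave Prdx6 -0.02, Gstm5 -1.62, Prdx5 -0.01, Gpx4 -0.24, Gstp1 -0.70, Txn2 -0.45, Gstm1 -1.10 and Gpx2 -6.02. The cause was not tested. With 2 replicates per group, a difference in few reads (Gsta2, Gpx7, Gstm7) is not resolved.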
